A study of Mus musculus with 30 samples.

Results

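Integrins are receptors in the plasma membrane through which cells hold on to the extracellular matrix and, in some cell types, to each other. Each is a dimer of an alpha and a beta subunit, and the pairing sets which ligand is bound. Laminins are trimers of an alpha, a beta and a gamma chain and the main adhesive proteins of basement membranes, the thin matrix sheets on which epithelia and the early embryonic cell layers rest. Described here are the 37 mouse genes with the symbol of an integrin alpha or beta subunit or laminin alpha, beta or gamma chain. They were taken by symbol from 22477 genes in the deposited expression table, with earlier results of these data known. They are 18 integrin alpha, 8 integrin beta, 5 laminin alpha, 3 laminin beta and 3 laminin gamma genes.

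The RNA came from secondary iPSCs of the mouse, that is, induced pluripotent stem cells made from cells that already carried the reprogramming factors Oct4, Sox2, Klf4 and cMyc (OSKM) as transgenes under the control of doxycycline (dox). All 15 conditions share this background, a GFP reporter in place of 1 Nanog allele and a nuclear red fluorescent protein that is always on, and the labels name no second line. In the time course, cells in medium with 2 kinase inhibitors and leukaemia inhibitory factor (2i/LIF) were sampled at 0 h, and at 24, 36, 48, 60, 72 and 96 h after these were withdrawn. In the other 8 conditions, cells differentiated for 0, 24, 48 or 96 h were re-seeded and kept for 48 h in serum/LIF without dox (–dox) or with dox, which turns the OSKM transgenes on (+dox). The line was maintained on mouse embryonic fibroblast feeders, and the methods describe a gelatin step before withdrawal and feeders after re-seeding for the colony assay only, so the surface under the cells that gave the RNA is not given in the sources used here. Feeders can add RNA of another cell type.

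Each of the 15 conditions has 2 replicates, for 30 samples in all, which the authors combined into 1 value per gene and condition. There are therefore no errors and no test for any difference below, and the statements compare single values. The unit is FPKM, which counts fragments relative to transcript length and library size and so allows levels to be compared between genes as well as between conditions. A gene was counted as higher or lower where its plain ratio was at least 2-fold and the higher value at least 1 FPKM. The share of all genes that met the same rule is given beside each count of subunit genes, except for the alternatives at the end. Over all genes, the FPKM values added up to 603278 in the condition with the lowest total and to 832607 in the one with the highest. The number of reads is unknown. From the steps between low values, a transcript of 4 kb at 1 FPKM stands at 57.2 to 93.8 steps in 11 conditions, and at 171 to 199 steps in the 4 re-seeded conditions of 0 and 24 h, so low values are finer in these. In bulk RNA, fewer cells of a type and less RNA per cell cannot be told apart.

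The cells were checked against marker lists. The 12 pluripotency genes, among them Pou5f1 and Sox2, summed to 1721 FPKM at 0 h and to 97.5 FPKM at 96 h. Each of the 12 was at least 2-fold lower at 96 h, against 16.4% of all genes. The 20 fibroblast genes summed to 895 FPKM before withdrawal, 102 FPKM 24 h later and 36.8 to 62.2 FPKM from 36 to 96 h. Their sum was 23.6 to 47.1 FPKM in 7 of the 8 re-seeded conditions and 185 FPKM in 96 h –dox. The 0 h condition of the time course and 96 h –dox thus have the highest sums of this list. The 9 blood cell genes in the table summed to 16.5 to 96.7 FPKM. Most of this was Cd68, a lysosomal protein of macrophages, at 9.30 to 90.1 FPKM, with Coro1a at up to 8.01 FPKM, Csf1r at up to 5.83 FPKM (96 h –dox) and Cd3e at up to 4.92 FPKM, while Ptprc (CD45) did not exceed 0.03 FPKM.

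The genes stand on many chromosomes, and 23 of the 37 have a RefSeq entry for the sequence before their start site (mouse build GRCm38.p6, the same coordinates as mm10). The sequences of 5 of them are shown because their genes carry the main patterns below: Itga3 and Lamb1, which are higher after differentiation, Lama5 and Itgb1, which are high in every condition, and Itgb7, which is highest in undifferentiated cells re-seeded in serum/LIF. Each runs 5′ to 3′ up to the start of the gene in Gencode M21. Capitals mark GGGCGG, the core letters bound by KLF and Sp factors, or its reverse complement, and in Itgb1 also GGAATG, the core letters of TEAD sites.
Itga3, chr11:95076802-95076964, minus strand: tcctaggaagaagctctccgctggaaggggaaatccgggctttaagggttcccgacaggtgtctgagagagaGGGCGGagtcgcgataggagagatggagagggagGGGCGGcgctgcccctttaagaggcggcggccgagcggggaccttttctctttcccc
Lamb1, chr12:31265043-31265233, plus strand: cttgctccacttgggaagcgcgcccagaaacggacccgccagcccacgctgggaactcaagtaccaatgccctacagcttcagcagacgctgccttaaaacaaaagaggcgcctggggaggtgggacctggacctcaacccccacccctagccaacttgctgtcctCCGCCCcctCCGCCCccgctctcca
Lama5, chr2:180225860-180226109, minus strand: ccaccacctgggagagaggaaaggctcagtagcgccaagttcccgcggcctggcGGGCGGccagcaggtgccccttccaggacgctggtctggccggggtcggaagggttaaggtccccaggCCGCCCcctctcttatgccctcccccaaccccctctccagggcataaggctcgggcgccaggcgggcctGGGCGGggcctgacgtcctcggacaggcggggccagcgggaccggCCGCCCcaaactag
Itgb1, chr8:128685404-128685653, plus strand: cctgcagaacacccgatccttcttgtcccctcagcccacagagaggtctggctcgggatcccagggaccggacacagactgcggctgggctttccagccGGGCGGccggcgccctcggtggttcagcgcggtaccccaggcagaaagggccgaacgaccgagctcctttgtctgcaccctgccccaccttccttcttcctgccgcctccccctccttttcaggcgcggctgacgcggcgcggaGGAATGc
Itgb7, chr15:102231945-102232185, minus strand: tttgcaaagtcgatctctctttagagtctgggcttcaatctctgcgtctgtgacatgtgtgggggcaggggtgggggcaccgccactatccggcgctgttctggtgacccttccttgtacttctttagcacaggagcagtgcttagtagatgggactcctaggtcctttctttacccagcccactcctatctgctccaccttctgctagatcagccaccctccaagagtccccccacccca
The Lama5 stretch holds 19 CpG dinucleotides and 4 copies of GGGCGG in either direction, and the Itgb7 stretch holds 5 CpG dinucleotides and no copy. Over the 250 bases before each RefSeq start site, GGGCGG on either strand was found in 9 of the 26 windows of the subunit genes (34.6%) and in 32.7% of 32851 windows of all genes. The other letters searched on both strands were GGAATG (TEAD, 11.5% of the subunit genes' windows against 12.6% of all), TGANTCA (AP-1, 3.85% against 6.75%), ACAATG (SOX, 3.85% against 10.7%) and ATGCAAAT (the octamer, in 0 windows of the subunit genes against 1.60%). The shares are close to those of all genes for GGGCGG and GGAATG, and the other letters were found in at most 1 of the 26 windows. A match of letters is a description and not a binding site. The median number of CpG dinucleotides was 14 in the 11 subunit genes with a window that reach 5 FPKM and 8 in the 8 that stay under 1 FPKM, against 16 and 4 for all genes of these classes.

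Of the 37 genes, 12 stayed under 1 FPKM in every condition, 7 reached 1 but not 5 FPKM, and 18 reached 5 FPKM (10 integrin and 8 laminin genes). The 25 genes that reached 1 FPKM are a share close to that of all genes in the table, of which 14856 (66.1%) did. The genes under 1 FPKM were the collagen receptor subunits Itga1, Itga2, Itga10 and Itga11, the subunit Itga4 of the receptor for fibronectin and VCAM1, Itga8, the leukocyte subunits Itgad, Itgae, Itgax and Itgb2, and the laminin chains Lama2, which is typical of muscle, and Lamc3. Itgad was listed at 0 in 14 of 15 conditions. The heat map of 36 of the 37 genes shows the few rows that carry most of the signal.

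**Figure D1:**
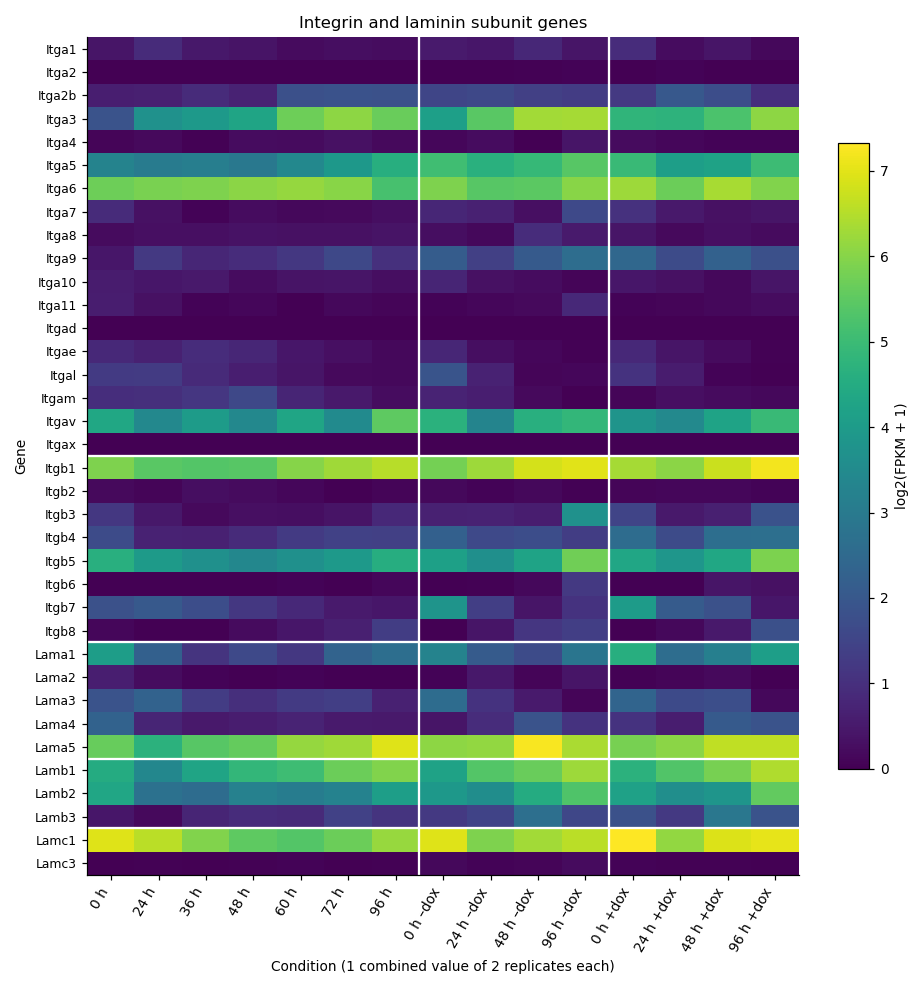
Heat map of log2(FPKM + 1) of 36 integrin and laminin subunit genes (rows, by family) in the 15 conditions (columns: time course, –dox, +dox), each the authors' combined value of 2 replicates. Itga3, Itga6, Itgb1, Lama5, Lamb1 and Lamc1 are among the brightest rows, and 12 genes stay under 1 FPKM everywhere.

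The gamma1 chain gene Lamc1 and the alpha5 chain gene Lama5 led the laminins, and the beta1 subunit gene Itgb1 or the alpha6 subunit gene Itga6 led the integrins, with Itga6 above Itgb1 in 5 of the 15 conditions (24 to 60 h and 0 h –dox). Lamc1 (chr1:153218922-153332786) encodes the gamma chain found in most laminins and was at 125 FPKM at 0 h. It read 93.2, 60.0, 44.8, 40.6, 50.1 and 72.5 FPKM at 24, 36, 48, 60, 72 and 96 h. The values are lower at each timepoint up to 60 h and higher again after it. Lama5 (chr2:180176373-180225859) had another course, with 47.9, 25.0, 42.2, 47.4, 70.6, 76.0 and 123 FPKM from 0 to 96 h. Its lowest value was at 24 h, and from 36 h each value was above the one before. Lamb1 (chr12:31265234-31329644), the most common beta chain, read 21.9, 9.44, 18.5, 27.8, 32.3, 50.6 and 60.7 FPKM, with the same minimum at 24 h.

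Itgb1 (chr8:128685654-128733200) encodes the beta subunit that the largest number of alpha subunits share. It read 59.4, 42.9, 40.1, 42.0, 62.5, 76.3 and 91.1 FPKM from 0 to 96 h, within 2.27-fold from lowest to highest. Among its alpha partners the order turned over. Itga6, the alpha chain of the laminin receptor alpha6 beta1, read 51.2, 56.1, 59.1, 65.0, 70.5, 64.0 and 35.4 FPKM. Itga3 (chr11:95044474-95076801), whose product binds laminins with an alpha5 or alpha3 chain, read 2.64, 12.0, 14.5, 18.3, 51.5, 66.1 and 49.5 FPKM. The ratio of Itga6 to Itga3 began at 19.4, had come to 4.67 by 24 h and 1.37 by 60 h, and ended at 0.715. As a share of the 12 alpha subunits that pair with beta1, Itga6 held 60.3% at 0 h and 22.9% at 96 h, and Itga3 held 3.11% at 0 h and 32.1% at 96 h. Both are laminin receptor subunits, and no other alpha subunit gene had a ratio of 96 h to 0 h as high as the 18.7-fold of Itga3.

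Itga5 and Itgav belong to receptors for fibronectin and other proteins with an RGD sequence. Itga5, of the main fibronectin receptor, read 8.68, 7.31, 7.71, 6.59, 9.74, 13.9 and 23.2 FPKM from 0 to 96 h. Its first 5 values lie close together and the last is the highest. Itgav, which also pairs with several other beta subunits, read 19.6, 9.73, 15.2, 9.74, 18.8, 10.4 and 44.1 FPKM. It went up and down between neighbouring timepoints, by up to 2.01-fold, with no steady direction before the 96 h value. Itga9 was low, from 0.361 FPKM before withdrawal to a highest value of 2.03 FPKM (72 h) and 1.03 FPKM in the end. In all 15 conditions, Itga3, Itga5, Itga6 and Itgav made up 95.2% to 98.6% of the sum of the beta1 partners.

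Of the other beta subunits, Itgb5, the partner of alphav for vitronectin, was the highest. It read 23.4, 14.7, 11.8, 9.48, 11.9, 14.7 and 22.7 FPKM, so the 96 h level was near that of 0 h. Itgb7, known from lymphocytes that home to the gut, read 2.51, 3.09, 2.33, 1.26, 0.782, 0.439 and 0.373 FPKM. The usual partners of its product were not there at matching levels, since Itga4 stayed at or under 0.327 FPKM and Itgae at or under 0.887 FPKM in all conditions. Itgal, the alpha subunit of LFA-1, read 1.35 FPKM at 0 h and 0.122 FPKM at 96 h, while its partner Itgb2 did not exceed 0.211 FPKM.

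Further laminin chain genes had lower values during withdrawal. Lamb2, the beta chain of laminin-521, read 19.1, 5.63, 5.02, 8.22, 7.36, 8.57 and 16.2 FPKM from 0 to 96 h, and Lama1 read 16.0, 3.72, 1.13, 2.05, 1.29, 3.999 and 5.21 FPKM. Both had their lowest value at 36 h, but Lamb2 came back near its level of 0 h and Lama1 did not. Lama3 ended at 0.583 FPKM after a highest value of 3.90 FPKM (24 h), and Lamb3 was between 0.142 and 1.65 FPKM. Lamb3 was highest in cells re-seeded from 48 h, at 5.43 FPKM –dox and 6.42 FPKM +dox.

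Itgb4 was at 2.17 FPKM before withdrawal and between 0.605 and 1.69 FPKM after it. In re-seeded cells it read 3.76, 2.06, 2.31 and 1.53 FPKM –dox, and 5.01, 2.21, 5.27 and 5.34 FPKM +dox, after 0, 24, 48 and 96 h of differentiation. Itga2b, the alpha subunit of the fibrinogen receptor of platelets, was between 0.526 and 0.856 FPKM up to 48 h and between 2.46 and 2.58 FPKM from 60 h on. Its classical partner Itgb3 was under 1 FPKM at all of these later timepoints.

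**Figure D2:**
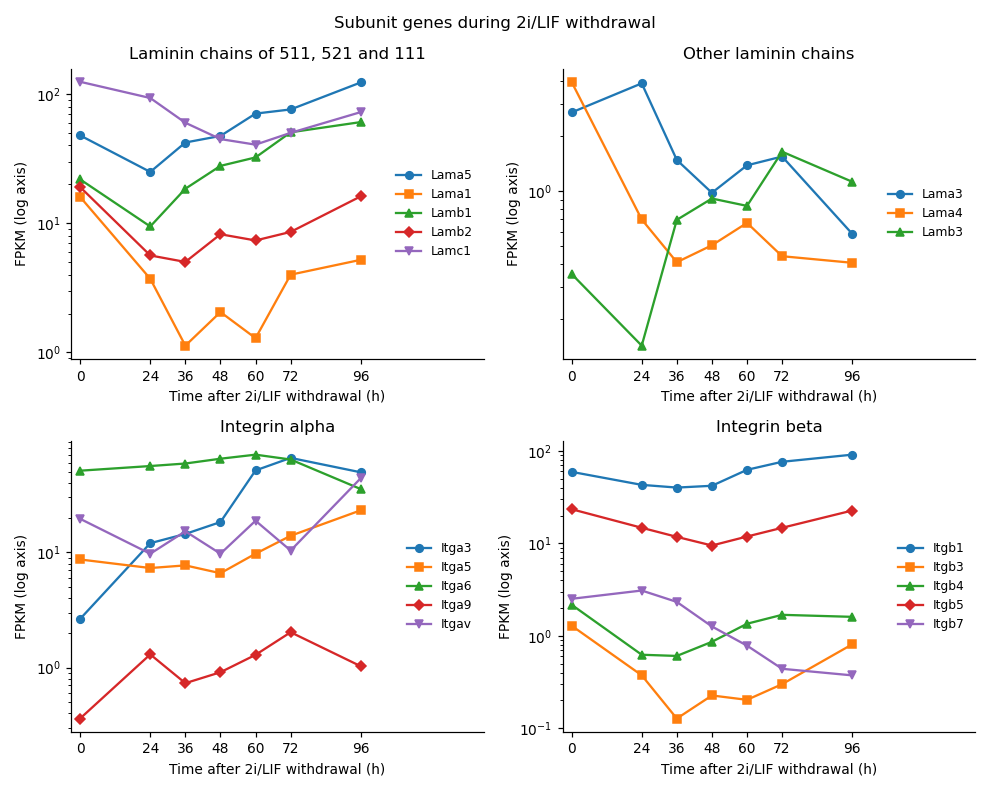
FPKM (log axis) against hours after 2i/LIF withdrawal for 18 subunit genes in 4 panels, with 1 combined value of 2 replicates per point and no error bars. Itga3 goes from 2.64 to 49.5 FPKM while Itga6 ends at 35.4 FPKM, and Lamc1 is lowest at 60 h while Lama5 and Lamb1 are lowest at 24 h.

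At 24 h against 0 h, 2 of the 19 subunit genes that reached 1 FPKM were higher and 7 were lower, against 8.64% higher and 14.3% lower of all genes. The median log2 ratio of the 19 genes was -0.67, and that of all genes -0.01. The 2 higher were Itga3 (4.55-fold) and Itga9 (3.60-fold). The 7 lower were Lama4 (5.68-fold), Lama1 (4.31-fold), Itgb4 (3.48-fold), Itgb3 (3.45-fold), Lamb2 (3.39-fold), Lamb1 (2.32-fold) and Itgav (2.01-fold). Lama1 is the alpha chain of the laminin of the early embryo, Lama4 belongs to vessel walls and mesenchyme, and Itgb4 pairs with alpha6 in hemidesmosomes, the anchors of epithelial cells. In the same interval 16 of the 19 fibroblast genes that reached 1 FPKM were lower and 1 was higher, and Col1a1, the collagen I chain, went from 229 to 20.96 FPKM. The part of fibroblast RNA in the lower subunit genes was not tested. In re-seeded undifferentiated cells Lama1 was at 8.61 FPKM –dox and 23.0 FPKM +dox, beside a fibroblast sum of 23.6 and 34.2 FPKM. Lamb1 and Itgav were above their 0 h level at 96 h, where that sum was 50.9 FPKM. Itgb3 was at 1.29 FPKM at 0 h, 0.127 to 0.8095 FPKM from 24 to 96 h and 1.85 FPKM in 0 h +dox. In 96 h –dox and +dox Itgb3 was at 12.0 and 2.62 FPKM, beside sums of 185 and 41.8 FPKM. Lama4 was at 3.98 FPKM at 0 h, at 0.405 to 0.7002 FPKM from 24 to 96 h and at 0.335 FPKM in 0 h –dox. Re-seeded after 48 h of differentiation, its values were 2.67 FPKM –dox and 3.22 FPKM +dox, and 1.09 and 2.67 FPKM after 96 h, beside sums of 46.5, 47.1, 185 and 41.8 FPKM.

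**Figure D3:**
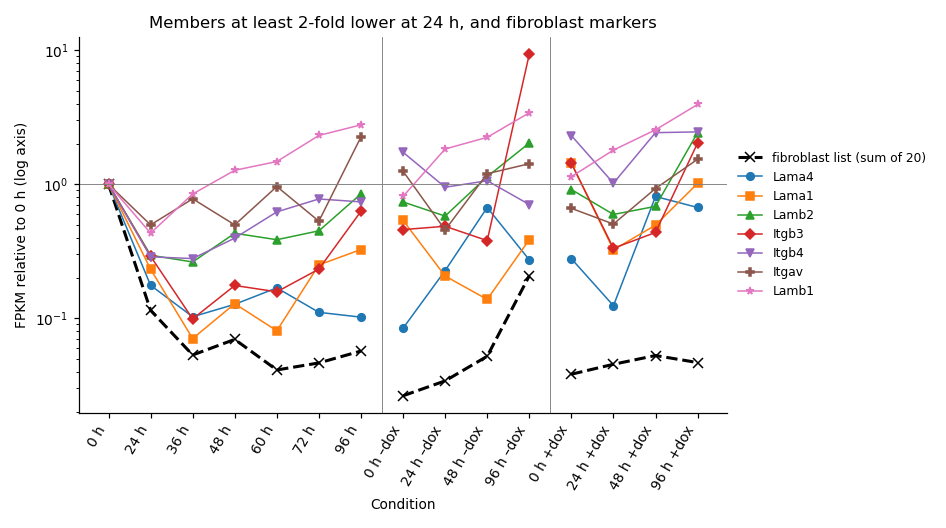
FPKM relative to 0 h (log axis) in the 15 conditions for the 7 subunit genes that were at least 2-fold lower at 24 h and for the sum of the 20 fibroblast genes (dashed), with lines joined only within the time course, –dox and +dox. The fibroblast sum stays under its 0 h value throughout, while Lamb1, Lamb2, Itgb3, Itgb4, Itgav and Lama1 return to or pass theirs in some conditions and Lama4 does not. Itgb3 is highest in 96 h –dox, where the fibroblast sum is highest after that of 0 h.

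At 96 h against 0 h, 9 of 22 subunit genes were higher and 5 were lower, against 16.8% and 16.4% of all genes. The median log2 ratio was -0.14 for the 22 genes and -0.02 for all genes, so the family moved both ways. Higher were the receptor subunits Itga3 (18.7-fold), Itgb8 (15.6-fold, to 1.504 FPKM), Itga2b (4.84-fold, to 2.55 FPKM), Itga9 (2.84-fold), Itga5 (2.67-fold) and Itgav (2.26-fold), and the laminin chains Lamb3 (3.20-fold, to 1.13 FPKM), Lamb1 (2.78-fold) and Lama5 (2.57-fold). Lower were Itgal (11.04-fold), Lama4 (9.82-fold), Itgb7 (6.74-fold), Lama3 (4.63-fold) and Lama1 (3.07-fold). The largest laminin alpha chains of 0 h, Lama5 and Lama1, thus went opposite ways: the ratio of Lama5 to Lama1 was 2.99 before withdrawal, 54.7 after 60 h and 23.6 after 96 h. Of the fibroblast genes, 16 of 19 were lower at 96 h than at 0 h. Of the extraembryonic endoderm genes, a cell type known for making laminins, 4 of 6 were higher and 0 lower, with a summed level of 7.22 and 39.1 FPKM at 0 and 96 h. Most of the 96 h sum was Dab2, at 3.53 and 26.2 FPKM, and no other gene of this list exceeded 3.224 FPKM at either time. The part of either cell type in the subunit genes' values was not tested.

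Undifferentiated cells re-seeded and kept for 48 h in serum/LIF (0 h –dox) were compared with those in 2i/LIF (0 h). The medium, the re-seeding as single cells and the added 48 h differ together and cannot be told apart. Higher were 7 of 21 subunit genes and lower were 2, against 12.0% and 10.1% of all genes, with a median log2 ratio of 0.49 for the subunit genes and -0.01 for all. The higher genes were Itga9 (9.41-fold), Itga3 (6.21-fold), Itgb7 (5.10-fold), Lamb3 (3.82-fold), Itga5 (3.75-fold), Itga2b (3.61-fold) and Itgal (2.05-fold). The lower genes were Lama4 (11.9-fold) and Itgb3 (2.18-fold), with 17 of 19 fibroblast genes lower as well. Itgb7 stands out by its level, with 12.8 FPKM –dox and 15.2 FPKM +dox in undifferentiated cells against 0.343 to 3.27 FPKM in the other 13 conditions. Itga3 was at 16.4 FPKM in 0 h –dox, above its level at 36 h of the time course (14.5 FPKM), in cells whose 12 pluripotency genes summed to 1502 FPKM.

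Among cells re-seeded without dox, some subunit genes followed the length of the differentiation before re-seeding and others did not. Lamb1 read 17.8, 40.1, 49.01 and 74.7 FPKM after 0, 24, 48 and 96 h of differentiation. Itgb1 read 54.5, 74.9, 115 and 126 FPKM, and Itga3 read 16.4, 42.9, 78.3 and 79.5 FPKM. All 3 genes were thus higher at each later time, though Itga3 hardly differed between 48 and 96 h. How many of all genes have such an order was not counted. Lama5 (67.1, 69.3, 150 and 82.5 FPKM) and Lamc1 (123, 59.4, 78.8 and 93.3 FPKM) did not have it. Itga5 was already at 32.5 FPKM in undifferentiated re-seeded cells and read 23.9, 28.9 and 41.6 FPKM after it, without such an order. Itga6 stayed between 41.5 and 63.6 FPKM. Lama3, an alpha chain of epithelial laminins, was lower at each later time, with 5.05, 1.09, 0.449 and 0.0634 FPKM. Itgb7 read 12.8, 1.58, 0.343 and 1.12 FPKM, lowest after 48 h.

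Between 96 h –dox and 0 h –dox, 10 of 24 subunit genes were higher and 4 were lower, against 21.5% and 21.7% of all genes. Their median log2 ratio was 0.45, and that of all genes -0.02. The higher genes with the clearest levels were Itgb3 (0.591 to 12.0 FPKM, 20.4-fold), Itga3 (4.84-fold), Lamb1 (4.21-fold), Itgb5 (16.9 to 52.5 FPKM, 3.10-fold), Lamb2 (2.75-fold) and Itgb1 (2.31-fold). Lama4 (0.335 to 1.09 FPKM), Itga7 (0.732 to 2.05 FPKM) and Itgb6 (0.0109 to 1.32 FPKM) stayed low, and Itgb8 was listed at 0 in 0 h –dox and at 1.55 FPKM in 96 h –dox. The lower genes were Lama3, Itgal, Itgb7 and Itgb4, the last from 3.76 to 1.53 FPKM. Fibroblast genes moved with this comparison, 13 of 17 higher and 2 lower. Of the extraembryonic endoderm genes 6 of 7 were higher and 0 lower, with a summed level of 6.36 and 49.7 FPKM. Dab2 alone was at 1.63 and 28.5 FPKM, and the next highest in 96 h –dox, Sox17, at 0.637 and 6.84 FPKM. Of the endothelial genes 2 of 7 were higher and 5 lower (sum 141 and 53.6 FPKM), the largest rise being that of Cdh5, the cadherin of endothelial cells, at 0.0764 and 13.1 FPKM. Most of both sums was Egfl7 (73.7 and 29.6 FPKM) and Pecam1 (56.6 and 1.52 FPKM), the latter also carried by naive pluripotent cells. The part of these cell types in the subunit genes' values was not tested. Itgb3 (chr11:104608000-104670476), the vitronectin receptor subunit of platelets and endothelium, was at or under 2.62 FPKM in the other 14 conditions.

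The effect of OSKM induction was compared within each time of differentiation. Without differentiation (0 h +dox against 0 h –dox), 4 of 22 were higher and 1 was lower, against 3.62% and 5.61% of all genes. The higher genes included Lama4 (0.335 to 1.11 FPKM), Itgb3 (0.591 to 1.85 FPKM) and Lama1 (8.61 to 23.0 FPKM), and the lower gene was Itgal (2.76 to 1.11 FPKM). After 24 h, 1 of 18 was higher and 0 were lower, against 2.87% and 3.40% of all genes. That gene was Itgb7, at 1.58 and 3.27 FPKM. The median log2 ratio of the subunit genes was 0.39 without differentiation and 0.12 after 24 h, with 0.05 and 0.02 for all genes. After 48 and 96 h it was 0.24 and 0.17, with -0.02 and -0.01 for all genes.

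After 48 h of differentiation, 4 of 20 subunit genes were higher with dox and 2 were lower, against 6.56% and 6.46% of all genes. Itgb7 was at 0.343 FPKM –dox and 2.50 FPKM +dox, Lama3 at 0.449 and 2.41 FPKM, Lama1 at 2.21 and 7.92 FPKM, and Itgb4 at 2.31 and 5.27 FPKM. The lower genes were Itgb8 (1.22 and 0.425 FPKM) and Itga3 (78.3 and 37.4 FPKM). At this time 9 of the 11 pluripotency genes that reached 1 FPKM were also higher with dox, and 0 were lower. The 9 include Pou5f1 (Oct4), Sox2 and Klf4, which are also transgenes that dox turns on. The fibroblast genes had 2 of 13 higher and 7 lower, and the endothelial genes 4 of 6 higher and 1 lower. Of the extraembryonic endoderm genes 0 of 6 were higher and 4 lower (sum 29.0 FPKM –dox and 10.1 FPKM +dox). Most of that sum was Dab2, at 21.8 FPKM –dox and 5.19 FPKM +dox. The part of these cell types in the subunit genes' values was not tested. Itga6 differed less, with 43.5 FPKM –dox and 80.9 FPKM +dox, so the ratio of Itga6 to Itga3 was 0.556 without dox and 2.16 with it.

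After 96 h, 3 of 22 were higher and 5 were lower, against 6.67% and 11.1% of all genes. The higher genes were Itgb4 (1.53 and 5.34 FPKM), Lama1 (6.17 and 16.2 FPKM) and Lama4 (1.09 and 2.67 FPKM). The lower genes were Itga7 (2.05 and 0.343 FPKM), Itgb6 (1.32 and 0.267 FPKM), Itgb3 (12.0 and 2.62 FPKM), Itgb7 (1.12 and 0.356 FPKM) and Itga9 (5.19 and 2.45 FPKM). Of the fibroblast genes, 12 of 18 were lower with dox and 2 higher. Of the extraembryonic endoderm genes 4 of 7 were lower and 0 higher (sum 49.7 FPKM –dox and 21.5 FPKM +dox). Most of this sum was Dab2, at 28.5 FPKM –dox and 12.0 FPKM +dox. The endothelial genes were split, with 2 of 6 higher (Tek and Vwf) and 2 lower, among them Cdh5 at 13.1 FPKM –dox and 0.776 FPKM +dox. The part of these cells in the subunit genes that were lower was not tested. The most abundant subunit genes were within 2-fold at this time, with Itgb1 at 126 and 147 FPKM, Lama5 at 82.5 and 97.7 FPKM and Lamc1 at 93.3 and 132 FPKM.

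Lama1 (chr17:67697259-67822647) had a higher value with dox at all 4 times, at least 2-fold at 0, 48 and 96 h and 1.57-fold at 24 h (3.30 and 5.19 FPKM). Lamc1 was higher with dox at all 4 times too, by 1.16- to 1.53-fold, as were the integrin genes Itgb4 and Itgb5. Itgb4 was at least 2-fold higher at 48 and 96 h, and Itgb5 at none of the 4 times. Itga5 was lower with dox at all 4 times, from 1.08-fold at 0 h to 1.62-fold at 48 h. Over the 4 times, 13 of the 25 subunit genes that reached 1 FPKM in some condition met the rule at least once (52%), and of all such genes 28.7% did. No value is used in more than 1 of these 4 comparisons.

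**Figure D4:**
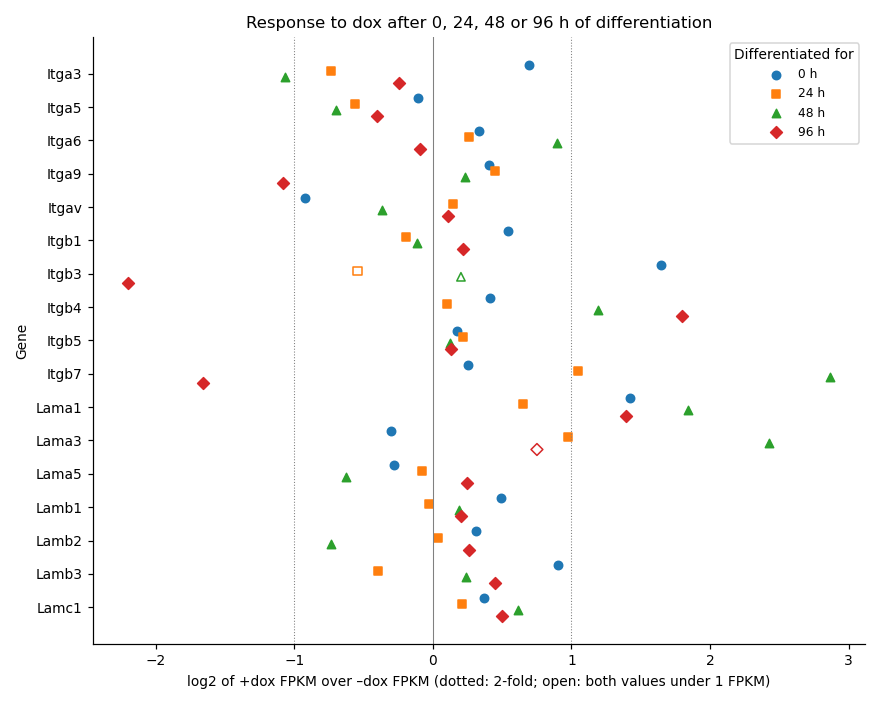
The log2 ratio of +dox to –dox FPKM for 17 of the 18 subunit genes that reach 5 FPKM, after 0, 24, 48 or 96 h of differentiation (dotted lines: 2-fold; open symbols: both values under 1 FPKM), from single combined values without error bars. Lama1 lies right of 0 at all 4 times, while Itgb3 and Itgb7 lie on both sides.

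Since a trimer needs all of its chains, the level of its lowest chain gene is given for some known trimers. It is a level of RNA, and protein was not measured here. For laminin-511 (Lama5, Lamb1, Lamc1), the laminin on which pluripotent cells are often cultured, this was 21.9 FPKM before withdrawal, 9.44 FPKM 24 h later and 60.7 FPKM in the end. Its highest value was 86.2 FPKM in 96 h +dox, and its limiting chain gene was Lamb1 or Lamc1, never Lama5. For laminin-111 (Lama1, Lamb1, Lamc1), the lowest chain gene was always Lama1, at 1.13 FPKM at 36 h and 23.0 FPKM in 0 h +dox. For laminin-521, with Lamb2 in place of Lamb1, it was always Lamb2, from 5.02 FPKM at 36 h to 46.4 FPKM in 96 h +dox. Laminin-411, of vessel walls, had all 3 chain genes at 1 FPKM or more in 6 of 15 conditions. Laminin-211 of muscle had them in 0, since Lama2 did not exceed 0.517 FPKM. In each of the 15 conditions the value for laminin-511 was above that for laminin-111, though in 0 h +dox only by 24.9 to 23.0 FPKM.

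**Figure D5:**
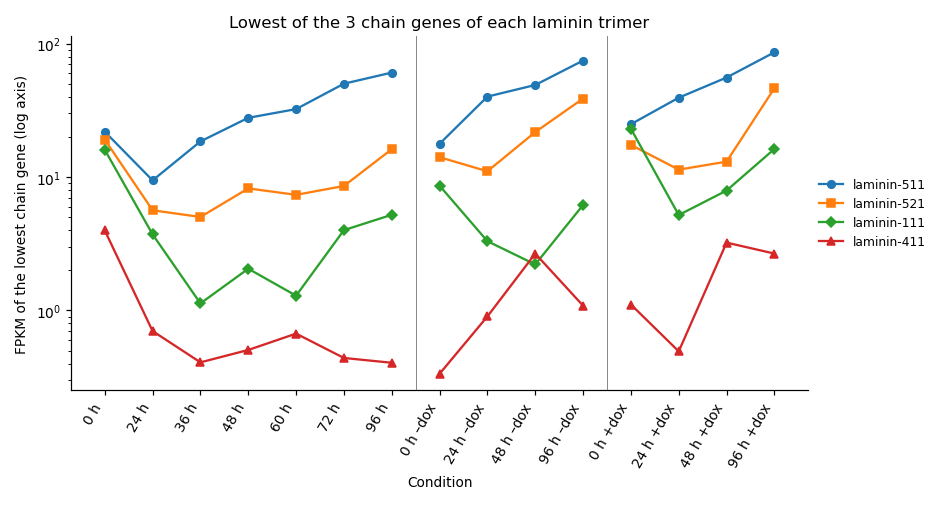
FPKM (log axis) of the lowest of the 3 chain genes of 4 laminin trimers in the 15 conditions, with 1 combined value of 2 replicates per point. Laminin-511 is at the top throughout, from 9.44 FPKM at 24 h to 86.2 FPKM in 96 h +dox, and laminin-111 comes nearest to it in 0 h +dox.

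Chains of a trimer did not all vary together. Across the 15 conditions, which share cells, processing and normalization, Pearson's r of log2(FPKM + 1) was 0.84 for Lama5 with Lamb1 and 0.87 for Lama1 with Lamc1. It was 0.04 for Lama5 with Lamc1 and -0.02 for Lamb1 with Lamc1. Of the integrin dimers, Itgb1 had an r of 0.71 with Itga3, 0.78 with Itga5 and -0.06 with Itga6. These are descriptions of 15 points and have no test. The beta1 chain gene was above the beta2 chain gene in all 15 conditions, from 1.15-fold at 0 h to 5.90-fold at 72 h.

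The genes around the subunits were read from fixed lists, to be set against the same shares of all genes as above (8.64% higher and 14.3% lower at 24 h, 16.8% and 16.4% at 96 h, each against 0 h). Of the 9 other integrin ligands that reached 1 FPKM at 0 or 24 h, 0 were higher and 6 were lower at 24 h. Postn (periostin) went from 102 to 9.69 FPKM and Fbln5 (fibulin-5) from 3.94 to 0.508 FPKM, and both are also made by fibroblasts. At 96 h, 4 of 12 ligands were higher and 6 lower than at 0 h, and Spp1 (osteopontin), which binds alphav integrins, went from 544 to 13.0 FPKM. Of 13 other basement membrane genes, 5 were higher and 4 lower at 96 h. Hspg2 (perlecan) went from 17.3 to 69.8 FPKM and Pxdn (peroxidasin, which crosslinks collagen IV) from 3.11 to 22.4 FPKM. Nid1 (nidogen-1), the linker between laminin and collagen IV networks, went from 71.9 to 3.59 FPKM and Nid2 from 81.1 to 34.3 FPKM. The laminin receptors that are not integrins included 2 higher of 6, Bcam (36.5 to 124 FPKM) and Dag1 (dystroglycan, 45.3 to 101 FPKM), and 2 lower, Cd44 and Sdc4.

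Inside the cell, 4 of 21 integrin adaptor and signalling genes were higher and 3 lower at 96 h than at 0 h, shares near those of all genes. Bcar1 (p130Cas), a scaffold at focal adhesions, went from 6.66 to 59.3 FPKM and Fermt1 (kindlin-1) from 0.0614 to 2.61 FPKM. Fermt3 (kindlin-3), the kindlin of blood cells, went from 2.72 to 0.460 FPKM. Between 0 h –dox and 96 h –dox, 10 of 22 of these genes were higher and 3 lower, against 21.5% and 21.7% of all genes, among them Parva (alpha-parvin, which links integrins to actin) at 3.01 and 81.5 FPKM and Zyx (zyxin) at 13.4 and 93.5 FPKM. Of the 12 basement membrane genes in that comparison, 4 were higher and 1 lower, with Col4a2, a collagen IV chain, at 7.11 and 103 FPKM. With dox after 96 h of differentiation, 1 of 21 adaptor genes was higher and 1 lower, and 0 of 12 basement membrane genes were higher and 2 lower, against 6.67% and 11.1% of all genes.

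Exons of some subunit genes overlap exons of a gene on the other strand in Gencode M21, and whether the reads were counted by strand is not given in the sources used here. Among the genes that reach 1 FPKM, this holds for Itgb4 (538 bases, with B230344G16Rik), Lama3 (197 bases, with Gm29200) and Itga7 (15 bases, with Mettl7b). Of the genes under 1 FPKM, it holds for Itga4, Itga8, Itgad, Lama2 and Lamc3. Exons of another gene on the same strand overlap those of Itgam (420 bases, with Gm49368), which reaches 1 FPKM. They also overlap those of Itga1, Itga10 and Itgad, which do not. The values of all these subunit genes may include reads of the other gene.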

How the data were processed

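Polyadenylated RNA of mouse secondary iPSCs was sequenced in 15 conditions with 2 replicates each. The authors mapped the reads with TopHat 2.0.14 to mm10 and quantified Gencode M4 transcripts with Cufflinks 2.2.1, and Cuffdiff combined the replicates of a condition into the deposited FPKM values. The library normalization is not given in the sources used here. The deposited table also holds 5 columns of the authors' own calls (groups of dynamic genes and responses to dox), which were not used.

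The 37 subunit genes were taken by symbol. They, the gene lists and the comparisons were chosen with earlier results of these data known. The values were compared as deposited with Python 3.11.15, numpy 2.4.6 and pandas 2.3.3, without scaling (median-ratio factors over 14518 genes ran from 0.990 to 1.03), and plotted with matplotlib 3.10.9. Subunit genes that reach 5 FPKM are described by their values and the others by group, and 1 of them is counted but its values are not reported here. Genes of the lists are named where they are among the 2 largest rises or falls of their list, and marker genes beside the results they move with. Ratios have no pseudocount, and genes listed at 0 have no ratio. The counting steps were tested on simulated data. Positions come from Gencode M21 on mm10, and sequences before start sites from RefSeq. Alternatives were a pseudocount, other minimum levels, scaled values and a 3-fold threshold. Without counts or replicate values, the depth behind a value and its error are unknown.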

Additional observations from a re-analysis of the deposited data

Results flagged for a closer look

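Itgb3 and Itgb7 met the 2-fold rule in opposite directions after dox at different times of differentiation. The log2 ratio of +dox to –dox of Itgb3 was 1.646 at 0 h (0.591 and 1.85 FPKM –dox and +dox) and -2.2 at 96 h (12.0 and 2.62 FPKM). For Itgb7 it was 1.045 at 24 h and 2.867 at 48 h, but -1.657 at 96 h, where both values were low (1.12 and 0.356 FPKM). With 1 combined value per condition, the difference between times was not tested. Of all 14856 genes that reach 1 FPKM, 312 met the rule in both directions.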

How the results depend on the processing

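No paired analysis was possible because the table holds 1 combined value per condition, and for the same reason no replicate could be left out. The counts of subunit genes that were higher or lower were recomputed under 5 alternatives for the 8 comparisons. Scaling by median-ratio factors moved 0 of the 16 counts by over 1.5 times. With 1 FPKM added to both values, 24 h against 0 h gave 1 higher and 4 lower, 0 h –dox against 0 h gave 4 and 1, dox at 0 h gave 2 and 0, dox at 24 h gave 0 higher, and dox at 48 h and 96 h gave 1 and 2 lower. With no minimum level, the lower counts were 13 (24 h against 0 h), 12 (96 h against 0 h), 6 (0 h –dox against 0 h), 8 (96 h –dox against 0 h –dox) and 4, 5, 6 and 13 (dox at 0, 24, 48 and 96 h), and the higher counts were 2 and 6 for dox at 24 and 96 h. With both values at 1 FPKM or more, the counts higher and lower were 1 and 4, 5 and 1, 4 and 0, and 5 and 2 in the 4 comparisons without dox, with 2 higher for dox at 0 h, 2 higher and 1 lower at 48 h and 2 lower at 96 h. At 3-fold, 96 h against 0 h gave 4 higher, 0 h –dox against 0 h gave 1 lower, dox at 0 h gave 2 and 0, dox at 24 h gave 0 higher, dox at 48 h gave 0 lower and dox at 96 h gave 1 higher. By construction, these rules admit fewer or more genes with low values or small ratios. The share of all genes under these rules was not computed, so the counts are not set against it. An alternative chosen after seeing the data put 24 h in place of 0 h, because fibroblast genes were high at 0 h. Against 24 h, 96 h had 11 higher genes in place of 9, with 8 shared, and 3 lower genes in place of 5, without Lama1 and Lama4. The fibroblast sum was still 102 FPKM at 24 h, against 50.9 FPKM at 96 h. Of the 65 log2 ratios that met the rule, 0 changed sign with 1 FPKM added or with scaling. Neither setting could have changed a sign. Adding the same amount to both values leaves the higher one higher, and the scaling factors are too close together to reverse a 2-fold ratio. The unknown depth limits all values near 1 FPKM.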

Other observations

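Some adhesion genes known from blood cells had their highest values in undifferentiated or early cells. They were picked after their values were seen, and others went the other way. Coro1a, of the blood cell list, went from 1.71 FPKM before withdrawal to 7.16 FPKM after 72 h, and Csf1r was highest in 96 h –dox (5.83 FPKM). The platelet subunit gene Itga2b went from 0.526 FPKM before withdrawal to 2.55 FPKM after 96 h, and Itgb3 was highest in 96 h –dox (12.0 FPKM). Fermt3 went from 2.72 FPKM before withdrawal to 7.06 FPKM after 36 h and 0.460 FPKM after 96 h, and was at 6.93 FPKM in 0 h –dox. Itgb7 and Itgal were highest in re-seeded undifferentiated cells, Itgb7 at 15.2 FPKM +dox and Itgal at 2.76 FPKM –dox. Itgam was highest at 48 h, at 1.98 FPKM, and at 0.181 FPKM at 96 h. Pecam1, an adhesion molecule of endothelium that naive pluripotent cells also carry, was at 45.0 FPKM before withdrawal and 1.11 FPKM after 96 h, and at 56.6 FPKM in 0 h –dox.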
